A study of Homo sapiens with 6 samples.

Results

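The MYC, MAX and MXD network is a family of transcription factors that share a basic helix-loop-helix leucine zipper domain and bind DNA in pairs. Its 10 genes studied here were MYC, MAX, MXD1, MXD3, MXD4, MXI1, MNT, MLX, MLXIP and MGA. They were chosen by symbol from the network as it is generally described, with earlier results of these data known. All 10 of 10 were listed in every library among 11048 genes. The cells were MM1.S, an established human multiple myeloma line, treated for 6 h with the DMSO vehicle, with 3 µM CCF642 or with 3 µM CCF642-34. CCF642 is a small-molecule inhibitor of protein disulfide isomerases, the enzymes that form disulfide bonds in the endoplasmic reticulum, and CCF642-34 is an analogue of it. There were 2 libraries of poly(A) RNA per group, 6 in all. The labels do not say whether the 2 libraries of a group came from separate cultures, so the tests measure only the spread between these libraries, which may be technical.

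MAX is the common partner of the network. MYC with MAX binds the E-box CACGTG and activates transcription, whereas the MXD proteins, MNT and MGA compete for MAX and repress genes through the same kind of site. MLX forms a parallel branch with MLXIP (MondoA), a factor that responds to glucose metabolites, and also pairs with MXD1, MXD4 and MNT. In myeloma, MYC is one of the best known drivers of proliferation, and its mRNA and protein both turn over fast.

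Because the proteins bind CACGTG, the promoters of the members themselves were searched for this motif. RefSeq promoter windows, from 250 bases before to 50 after a transcription start on GRCh38.p14, were searched for the 9 members other than MYC, which gave 14 windows. CACGTG reads the same on both strands. It was present in 3 of the 14 windows (21.4%), against 7.26% of all 35116 windows and 9.39% of the 13061 windows of listed genes. The stretches around the motif are shown for these 3 members, 5′ to 3′ on the strand of the gene, with CACGTG in capitals. The MLX stretch is chr17:42566990-42567099 on the plus strand, and its motif begins 50 bases before the start. The MNT stretch is chr17:2401188-2401310 on the minus strand, and its motif begins 193 bases before the start. The MXD4 stretch is chr4:2262282-2262359 on the minus strand, and its motif begins 238 bases before the start.
MLX: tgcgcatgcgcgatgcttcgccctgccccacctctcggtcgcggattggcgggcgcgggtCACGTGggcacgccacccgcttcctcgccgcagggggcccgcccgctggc
MNT: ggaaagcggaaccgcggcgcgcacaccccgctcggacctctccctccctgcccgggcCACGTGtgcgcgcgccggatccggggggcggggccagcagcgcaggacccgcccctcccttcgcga
MXD4: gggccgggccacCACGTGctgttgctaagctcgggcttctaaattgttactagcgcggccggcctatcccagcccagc
A match of letters is a description of these windows. No binding was measured in these libraries.

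The values are CPM, the reads on a gene as a share of its library's total, deposited on a linear scale and scaled here with TMM factors between 0.957 and 1.05, and they are called scaled CPM below. Between 20567313 and 28459677 reads lay behind a library. Fold changes are on the log2(scaled CPM + 1) scale, which understates the change of genes with low values, and were tested with limma over all listed genes with Benjamini-Hochberg adjustment. An adjusted p under 0.05 was called a change. All 10 plasma cell markers searched, among them SDC1, IRF4 and XBP1, were listed. Their summed level was 9904 to 10000 CPM in the DMSO libraries, 7020 to 7054 CPM after CCF642 and 7866 to 7911 CPM after CCF642-34. These and the other marker sums are of deposited CPM, without TMM factors, and single markers moved in both directions. With CCF642, mean IRF4 rose from 636 to 1185 scaled CPM, while mean SDC1 fell from 817 to 256. Of the B cell, T cell, myeloid, epithelial and fibroblast markers, 5 of 20 were listed (BCL6, CD3E, EPCAM, KRT8 and COL1A1). The defining markers MS4A1, CD3D and CD14 were not listed, and no marker sum of another cell type exceeded 10.5 CPM, the highest being COL1A1 with CCF642.

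Both compounds lowered MYC mRNA and raised MXD1 mRNA, and the remaining members moved by less than these with CCF642. With CCF642, all 10 of 10 members changed, 5 up and 5 down, where 63.1% of all genes were called (31.8% up and 31.3% down). With CCF642-34, 7 of 10 changed, 3 up and 4 down, where 57.6% of all genes were called (29.7% up and 27.9% down). With changes this widespread, the share of members called is read only against these percentages, and the sizes of the changes carry more of the description. A change of at least 2-fold was met by MYC and MXD1 with CCF642, where 6.49% of all genes met it, and by MYC alone with CCF642-34, where 3.88% did. The libraries did not overlap those of DMSO for 10 of 10 members with CCF642, where this held for 79.4% of all genes, and for 8 of 10 with CCF642-34, where it held for 78.9%. Both contrasts used the same DMSO libraries.

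**Figure D1:**
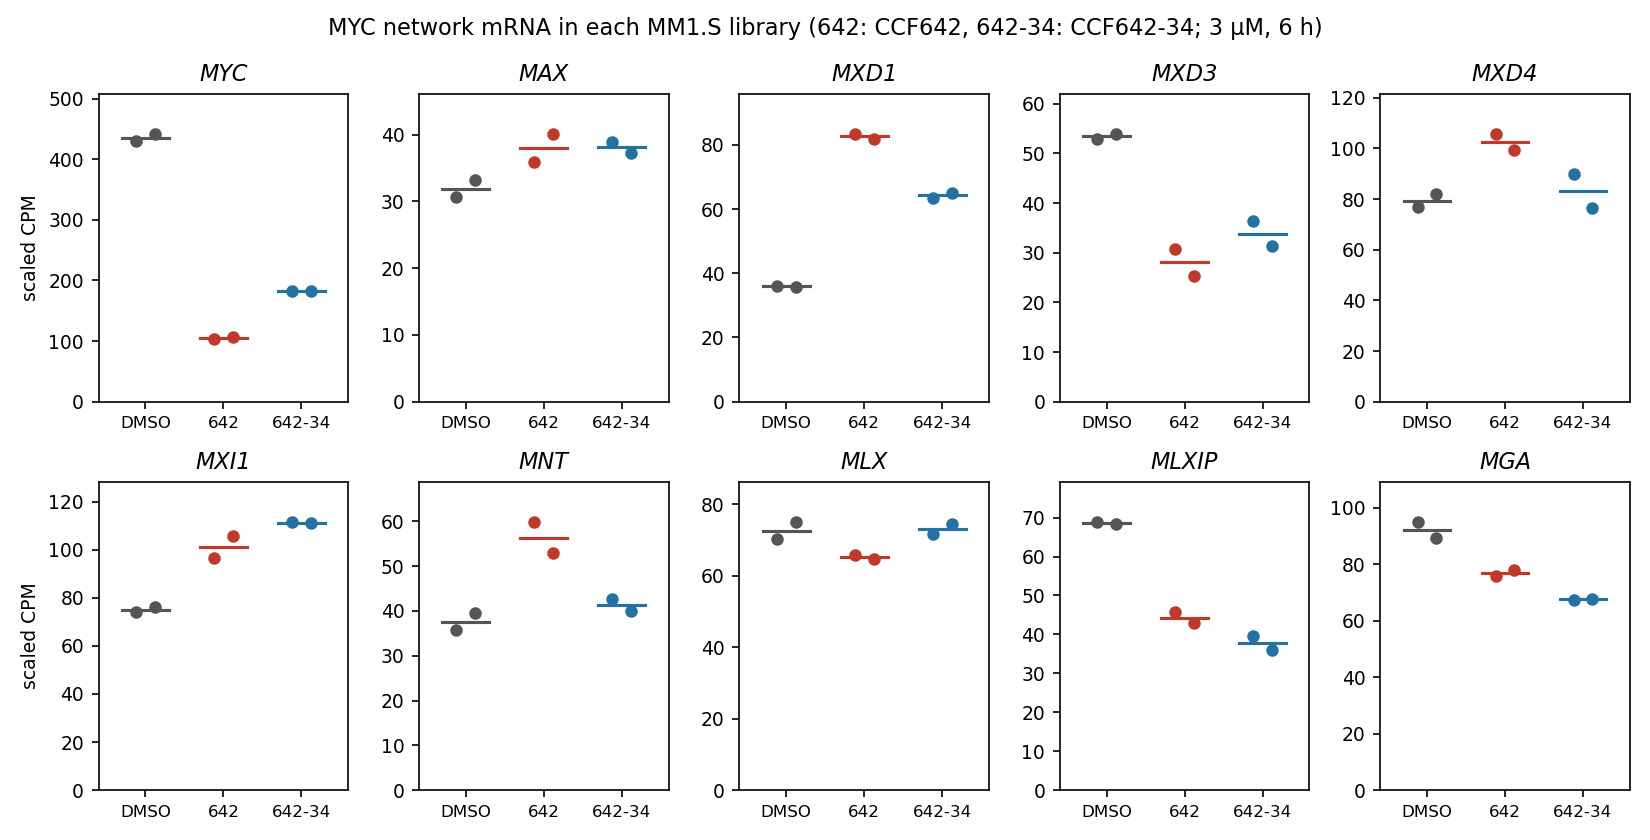
mRNA level of the 10 network genes in each library. The vertical axes give scaled CPM from 0, each point is 1 library (n = 2 per group; grey DMSO, red CCF642, blue CCF642-34) and the horizontal line is the group mean; MYC fell from 429 and 442 scaled CPM with DMSO to 103 and 108 with CCF642, while MXD1 rose from 36.2 and 35.7 to 83.5 and 81.8.

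MYC, the activating member, had the highest level of the network with DMSO and with CCF642-34. Its level was 429 and 442 scaled CPM in the DMSO libraries, 103 and 108 with CCF642, and 183 and 182 with CCF642-34. The 3 groups were fully separated, with DMSO highest and CCF642 lowest. With CCF642, the libraries of MYC overlapped those of MXD4 and of MXI1 in scaled CPM without regard to length. MYC mRNA fell to 24.4% of the DMSO level with CCF642 (log2 fold change −2.04 ± 0.045 SE, adjusted p = 2.33e-37, limma) and to 42.1% with CCF642-34 (−1.25 ± 0.045, adjusted p = 2.69e-28). Among all 11048 genes, this was the 4th lowest log2 fold change with CCF642 and the 54th lowest with CCF642-34. The call held in all 17 alternative fits, over which the log2 fold change ranged from −2.17 to −2.01 with CCF642 and from −1.34 to −1.23 with CCF642-34. In bulk RNA, fewer cells with MYC mRNA and less of it per cell cannot be told apart. The other MYC genes, named after their values were seen, were near the lower limit of listed values. MYCN, the neuroblastoma member, averaged 1.81 ± 0.48 scaled CPM (SD, n = 2) with DMSO and MYCL 2.63 ± 0.077.

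MAX, the shared partner, moved little. It was measured at 30.7 and 33.2 scaled CPM with DMSO, 35.9 and 40.2 with CCF642, and 38.9 and 37.3 with CCF642-34. The treated libraries lay above the DMSO libraries and overlapped each other. The log2 fold change was 0.24 ± 0.079 (adjusted p = 0.00661, limma) with CCF642 and 0.25 ± 0.079 (adjusted p = 0.00627) with CCF642-34. These calls were weak. They ended without DMSO replicate 1 (0.19 with CCF642 and 0.20 with CCF642-34, adjusted p = 0.11 for both), without CCF642 replicate 2 (0.17) for CCF642, and without CCF642-34 replicate 1 (0.22) for CCF642-34. They also ended with library size alone in place of TMM factors, at 0.11 and 0.16. An antisense transcript overlaps exons of MAX. The strand setting of the counting is not given in the sources used here, so the reads of overlapping genes may be shared. Noncoding transcripts on the opposite strand also overlap exons of MXI1, MNT and MGA, and a microRNA gene overlaps those of MXD4 on the same strand. Only MYC and MLXIP had no exon overlap with another gene.

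The MXD genes encode repressors that compete with MYC for MAX, and they did not move as a block. MXD1, first known from differentiating cells, rose. Its level was 36.2 and 35.7 scaled CPM with DMSO, 83.5 and 81.8 with CCF642, and 63.5 and 65.0 with CCF642-34. The 3 groups were again fully separated, here in the reverse order to MYC. The rise was 2.27-fold with CCF642 (log2 fold change 1.18 ± 0.064, adjusted p = 2.2e-21) and 1.77-fold with CCF642-34 (0.82 ± 0.064, adjusted p = 1.75e-15), and both calls held in all 17 alternatives. Exons of SNRNP27 overlap those of MXD1 on the same strand.

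MXD3, the member known from proliferating cells in S phase, moved in the opposite direction to MXD1. It stood at 52.9 and 54.0 scaled CPM with DMSO, 30.8 and 25.3 with CCF642, and 36.3 and 31.4 with CCF642-34. Both treated groups lay below DMSO, and every CCF642-34 library lay above every CCF642 library, the nearest being 31.4 against 30.8. The level fell to 53.1% of DMSO with CCF642 (log2 fold change −0.91 ± 0.084, adjusted p = 2.45e-13) and to 63.9% with CCF642-34 (−0.65 ± 0.084, adjusted p = 5.43e-09). The CCF642-34 call ended with a gene-wise linear model, which shares no variance between genes (adjusted p = 0.0518). Exons of RAB24 and PRELID1 overlap those of MXD3, the first on the same strand.

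MXI1, also called MXD2, rose with both compounds. It was measured at 74.0 and 76.0 scaled CPM with DMSO, 96.5 and 106 with CCF642, and 111 in both CCF642-34 libraries. The log2 fold change was 0.42 ± 0.056 (adjusted p = 6.42e-09) with CCF642 and 0.56 ± 0.056 (adjusted p = 3.93e-12) with CCF642-34. MXI1 was the only MXD gene whose mean was higher with CCF642-34 than with CCF642 while lying above DMSO in both.

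MXD4 rose with CCF642, and its change with CCF642-34 did not pass the test. Its level was 76.7 and 82.1 scaled CPM with DMSO, 106 and 99.2 with CCF642, and 89.8 and 76.6 with CCF642-34. The CCF642 libraries were above all others, and the CCF642-34 libraries straddled those of DMSO. The log2 fold change was 0.36 ± 0.062 (adjusted p = 1.48e-06) with CCF642. With CCF642-34 it was 0.06 (95% interval −0.06 to 0.19, adjusted p = 0.396). The CCF642 call ended with a gene-wise linear model (adjusted p = 0.0801). The CCF642-34 value depended on the library used, at −0.05 without CCF642-34 replicate 1 and 0.18 (adjusted p = 0.0385) without replicate 2.

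MNT and MGA are the other repressive partners of MAX. MNT, which is present in resting and dividing cells alike, was measured at 35.7 and 39.6 scaled CPM with DMSO, 59.8 and 52.9 with CCF642, and 42.7 and 40.0 with CCF642-34. CCF642 raised it 1.49-fold (log2 fold change 0.57 ± 0.075, adjusted p = 5.75e-09). With CCF642-34 both libraries lay above both DMSO libraries, yet the log2 fold change of 0.13 did not pass the test (95% interval −0.02 to 0.29, adjusted p = 0.122).

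MGA, the largest protein of the network, carries a T-box besides its leucine zipper domain and is part of a Polycomb complex. It fell. Its level was 94.9 and 89.3 scaled CPM with DMSO, 75.7 and 78.1 with CCF642, and 67.4 and 67.8 with CCF642-34, so the groups were separated with CCF642-34 lowest. The log2 fold change was −0.26 ± 0.058 (adjusted p = 0.000168) with CCF642 and −0.44 ± 0.058 (adjusted p = 9.76e-09) with CCF642-34.

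In the MLX branch, the partner changed and MLX itself hardly did. MLXIP was measured at 68.8 and 68.3 scaled CPM with DMSO, 45.7 and 42.8 with CCF642, and 39.6 and 36.1 with CCF642-34. The groups did not overlap, and CCF642-34 was lowest. The log2 fold change was −0.62 ± 0.070 (adjusted p = 1.07e-10) with CCF642 and −0.84 ± 0.070 (adjusted p = 1.49e-14) with CCF642-34. MLX was measured at 70.3 and 75.0 scaled CPM with DMSO, 65.9 and 64.8 with CCF642, and 71.8 and 74.6 with CCF642-34. The CCF642 libraries were the lowest, and those of CCF642-34 lay within the range of DMSO. The log2 fold change of MLX was −0.15 ± 0.061 (adjusted p = 0.0287) with CCF642. This call ended without DMSO replicate 2 (−0.10, adjusted p = 0.292) and without CCF642 replicate 2 (−0.14, adjusted p = 0.0755). With CCF642-34 the MLX value was 0.01 (95% interval −0.11 to 0.13, adjusted p = 0.886). Exons of PSMC3IP overlap those of MLX on the opposite strand.

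The compounds were compared directly at their matched dose and time, as 1 of 3 comparisons of the groups. CCF642-34 left more MYC mRNA than CCF642, by 1.73-fold (log2 difference 0.79 ± 0.045, adjusted p = 1.77e-19, limma), the 7th highest difference of all 11048 genes. MXD1 and MNT were lower with CCF642-34 than with CCF642, by 0.36 ± 0.064 (adjusted p = 1.67e-05) and 0.44 ± 0.075 (adjusted p = 9.06e-06) on the log2 scale. In all, 9 of 10 members differed between the compounds, 4 higher and 5 lower with CCF642-34, where 33.4% of all genes were called (15.9% higher and 17.5% lower). The libraries of the compounds did not overlap for the same 9 members, where this held for 63.4% of all genes. None (0 of 10) reached 2-fold with an unadjusted p under 0.05 in limma, where 0.308% of all genes did.

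For 3 of these members, MYC, MXD1 and MNT, the difference between the compounds was called whichever library was left out. With a gene-wise linear model, which shares no variance between genes, the MNT call ended (adjusted p = 0.109) and those of MYC and MXD1 held. The other calls were small, and each ended in at least 1 fit that left out a library. In some of these fits the difference of MGA, MLX or MXI1 hardly moved. An ended call therefore does not by itself mean that 1 library carried the difference. MXD4 was lower with CCF642-34 by a log2 difference of −0.30 (adjusted p = 0.000137), which was −0.19 and no longer called without CCF642-34 replicate 2. MXD3 was higher by 0.27 (adjusted p = 0.0114), and was not called when CCF642 replicate 2 (0.13) or CCF642-34 replicate 1 (0.16) was left out. MLXIP was lower by −0.22 (adjusted p = 0.0119), and the call ended when CCF642 replicate 1 (−0.18) or CCF642-34 replicate 2 (−0.15) was left out. For MGA the difference was −0.18 (adjusted p = 0.0124), and it was not called without CCF642 replicate 2 (−0.16), CCF642-34 replicate 1 (−0.18) or CCF642-34 replicate 2 (−0.18).

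The smallest differences were those of MLX (0.16, adjusted p = 0.0351) and MXI1 (0.14, adjusted p = 0.0495). The MLX call was kept only without CCF642 replicate 1, and over the fits without 1 library its difference ranged from 0.14 to 0.19. The MXI1 call was kept only without CCF642 replicate 2, with a range from 0.08 to 0.20. MAX did not differ by this test, with a log2 difference of 0.01 and a 95% interval from −0.15 to 0.16.

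**Figure D2:**
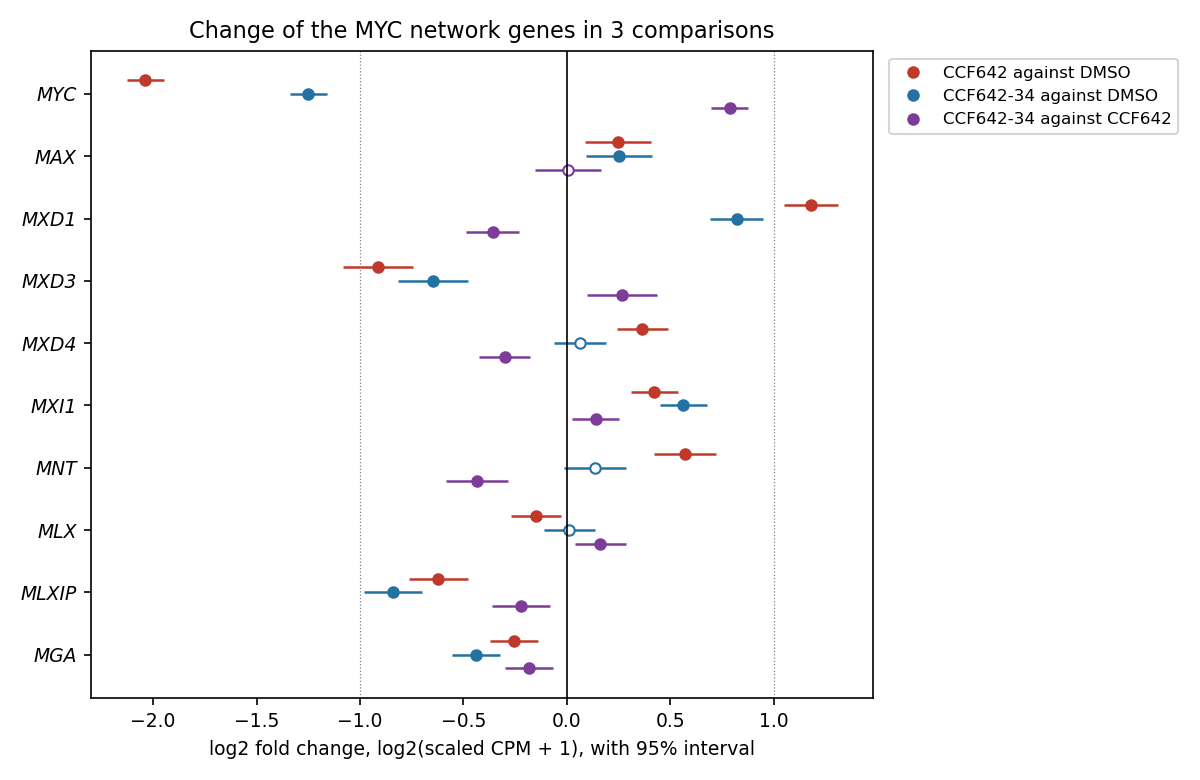
Log2 fold change of each network gene in the 3 comparisons. The horizontal axis is the difference in log2(scaled CPM + 1), points are limma estimates from 2 libraries per group with 95% intervals, filled points have an adjusted p under 0.05, and dotted lines mark 2-fold; MYC at −2.04 and −1.25 lies farthest from 0, and MXD4, MNT and MLX are open for CCF642-34 against DMSO.

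The balance of mRNA for MYC and the competing partners of MAX was described per transcript length, since reads per gene also scale with length. Each level was divided by the joint length of the exons of the gene's protein-coding transcripts in GENCODE 29, which gives scaled CPM per kb. With DMSO, MYC was highest at 145 ± 3.1 CPM per kb (SD, n = 2), followed by MLX at 28.1 ± 1.3, MXD4 at 19.6 ± 0.95, MXI1 at 17.9 ± 0.34 and MXD3 at 16.1 ± 0.23. MAX (7.77 ± 0.43), MNT (7.53 ± 0.55), MXD1 (6.08 ± 0.053), MLXIP (5.90 ± 0.027) and MGA (5.87 ± 0.25) formed the lower end. In that order, MAX and MNT did not differ beyond their spread, nor did MLXIP and MGA. After CCF642, MYC was at 35.1 ± 1.0 CPM per kb, still the highest, and MLX (25.2 ± 0.29), MXD4 (25.3 ± 1.2) and MXI1 (24.1 ± 1.5) were within their spread of each other. After CCF642-34, MYC was at 60.9 ± 0.29, followed by MLX at 28.3 ± 0.74 and MXI1 at 26.5 ± 0.072.

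Of the summed CPM per kb of the 7 genes whose proteins pair with MAX (MYC, MXD1, MXD3, MXD4, MXI1, MNT and MGA), MYC made up 66.6% and 66.5% in the DMSO libraries, 27.8% and 29.3% with CCF642, and 42.3% and 43.7% with CCF642-34. The groups did not overlap, and CCF642-34 lay between the others. The 4 MXD genes together made up 27.3% ± 0.071 (SD, n = 2) in the DMSO libraries, 58.3% ± 0.40 after CCF642 and 48.1% ± 0.97 after CCF642-34. The ratio of MYC to the sum of the MXD genes was 2.43 ± 0.0085 with DMSO, 0.489 ± 0.021 with CCF642 and 0.894 ± 0.038 with CCF642-34, so with these lengths the MXD sum was below MYC with DMSO and above it in both treated groups. The shares moved with the length used. With coding length, MYC made up 48.3%, 14.2% and 24.4% in the same order of groups, which kept the order. These are shares of mRNA, and no protein was measured in these libraries.

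**Figure D3:**
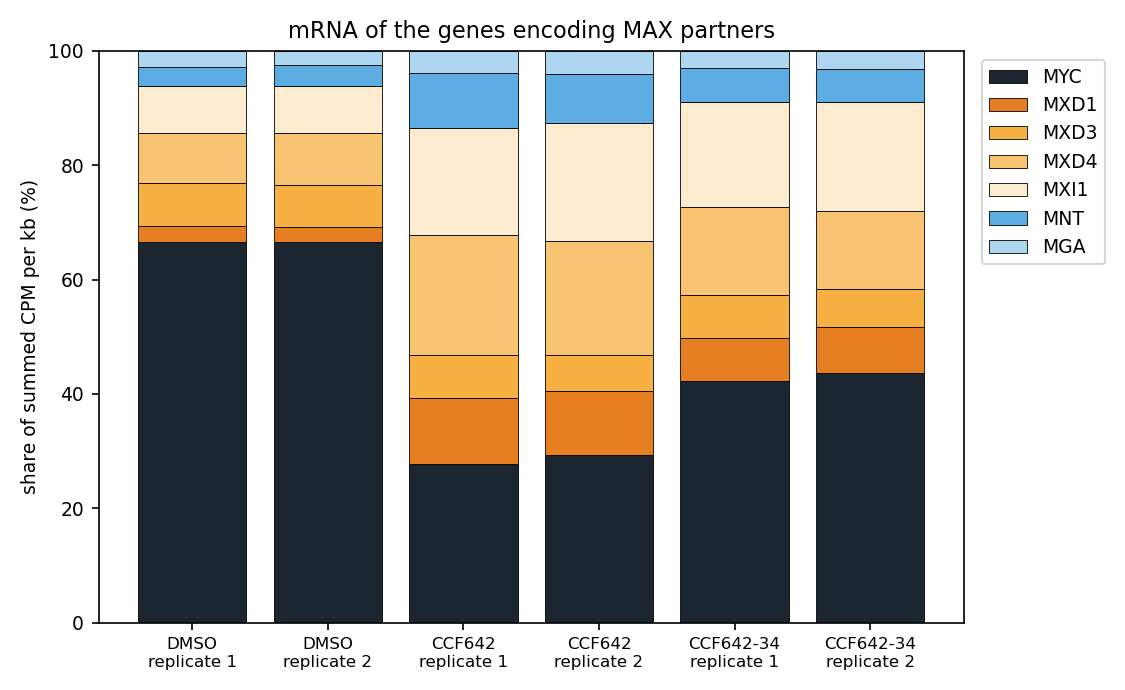
Shares of the 7 genes whose proteins pair with MAX in each library. The vertical axis is the percent of their summed scaled CPM per kb of exon, 1 bar per library; the MYC part is 66.6% and 66.5% with DMSO, 27.8% and 29.3% with CCF642, and 42.3% and 43.7% with CCF642-34.

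The genes around the network were described with 6 lists, with no set test. The lists were written from general knowledge but with earlier results of these data known, so their shares are not independent of the data. Of the other partners and cofactors, 26 of 27 were listed. With CCF642, 8 rose and 10 fell, and with CCF642-34, 8 rose and 12 fell, where 31.8% and 31.3% of all genes rose and fell with CCF642 and 29.7% and 27.9% with CCF642-34. The median log2 fold change was −0.10 and −0.14, against −0.01 and 0.01 over all genes. TFAP4, an E-box factor itself known to be induced by MYC, fell most, from 38.3 ± 1.6 scaled CPM (SD, n = 2) with DMSO to 12.5 ± 0.33 with CCF642 and 15.9 ± 0.47 with CCF642-34. WDR5, a chromatin cofactor of MYC, fell from 86.8 ± 5.4 to 59.9 ± 3.4 and 58.1 ± 0.71. RYBP and E2F6, picked as the largest rises among the called genes of the list, occur in the Polycomb complex with MGA, which itself fell. They do not stand for the complex as a whole. RYBP went from 74.5 ± 1.5 to 138 ± 5.8 and 121 ± 5.2, and E2F6 from 17.5 ± 1.5 to 26.2 ± 5.3 and 29.5 ± 1.5. With library size alone in place of TMM factors, 6 partners rose and 14 fell with CCF642, where 22.9% of all genes rose and 42.9% fell under the same scaling.

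Factors that act on the MYC promoter or its mRNA moved in both directions. Of 20 listed genes of 22, 7 rose and 6 fell with CCF642, and 6 rose and 7 fell with CCF642-34, with medians of −0.01 and 0.01. All genes had 31.8% up and 31.3% down with the first, and 29.7% up and 27.9% down with the second. IRF4, the plasma cell factor that binds MYC regulatory DNA in myeloma, rose from 636 ± 16 scaled CPM to 1185 ± 19 with CCF642 and 1371 ± 7.1 with CCF642-34. BRD2, a bromodomain protein, rose from 17.2 ± 0.16 to 28.7 ± 2.6 and 26.2 ± 2.0. IKZF1 (Ikaros), which supports IRF4 and MYC expression in myeloma, fell from 189 ± 2.9 to 135 ± 4.2 and 135 ± 2.3, and E2F1 fell from 117 ± 1.4 to 86.4 ± 1.0 and 77.5 ± 6.0. With library size alone, 5 rose and 11 fell with CCF642 (22.9% and 42.9% of all genes), and 4 rose and 9 fell with CCF642-34 (22.6% and 36.0% of all genes).

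Genes for the turnover of MYC protein held some of the largest values of the 6 lists. Of 16 listed genes of 17, 7 rose and 6 fell with CCF642, where 31.8% and 31.3% of all genes did, and 5 rose and 5 fell with CCF642-34, where 29.7% and 27.9% did. With library size alone, 3 rose and 7 fell with CCF642-34, where 22.6% and 36.0% of all genes did. USP36, a nucleolar deubiquitinase that acts on MYC, rose from 142 ± 5.8 scaled CPM to 514 ± 8.9 with CCF642 and 247 ± 8.9 with CCF642-34. FBXO32, an F-box protein of muscle wasting that also targets MYC, rose from 59.4 ± 2.2 to 181 ± 3.3 and 93.1 ± 3.5. Both were lower with CCF642-34 than with CCF642, by a log2 difference of −1.06 for USP36 (adjusted p = 8.36e-25) and −0.95 for FBXO32 (adjusted p = 1.81e-19). The F-box gene FBXW7, the best known ubiquitin ligase subunit for MYC and chosen after its values were seen, rose from 43.9 ± 2.3 to 71.8 ± 1.7 and 56.8 ± 1.6. The mitotic kinase gene PLK1 fell from 190 ± 3.0 to 53.7 ± 8.6 and 80.3 ± 0.25, and SKP2, an F-box gene of cell cycle entry, from 51.5 ± 3.3 to 21.0 ± 0.32 and 22.7 ± 1.1.

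Genes known to be activated by MYC were mostly lower in the treated cells. Of 49 listed genes of 50, 30 fell and 9 rose with CCF642, and 26 fell and 8 rose with CCF642-34, with medians of −0.23 and −0.16. The list thus had 61.2% down and 18.4% up with CCF642 and 53.1% down and 16.3% up with CCF642-34, against 31.3% down and 31.8% up, then 27.9% down and 29.7% up, of all genes. With library size alone, 3 rose and 33 fell with CCF642-34 (6.12% and 67.3%), where 22.6% and 36.0% of all genes did. RRS1, a ribosome assembly gene, fell from 40.3 ± 2.5 scaled CPM to 16.7 ± 0.63 and 19.0 ± 2.1, and CDC25A, a cell cycle phosphatase, from 66.3 ± 1.6 to 44.2 ± 0.64 and 37.4 ± 2.5. Other genes of the list went up. TFRC, the transferrin receptor, rose from 208 ± 5.4 to 583 ± 11 and 600 ± 12, and RRP12, another ribosome assembly gene, from 116 ± 2.1 to 220 ± 9.0 and 178 ± 1.8. Between the compounds, where MYC itself was 1.73-fold higher with CCF642-34, 9 genes of the list were higher, 8 were lower and 32 did not pass the test. These were 18.4% higher and 16.3% lower, near the 15.9% and 17.5% of all genes. With library size alone, 16 were higher and 6 lower (32.7% and 12.2%), against 21.8% and 13.5% of all genes.

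Genes known to be repressed by MYC were mostly higher. Of 13 listed genes of 16, 8 rose and 2 fell with CCF642, and 9 rose and 2 fell with CCF642-34, with medians of 0.47 and 0.43. All genes had 31.8% up and 31.3% down with CCF642, and 29.7% up and 27.9% down with CCF642-34. CDKN1A, which encodes the cell cycle inhibitor p21 and is also a target of p53 and of stress pathways, rose from 19.2 ± 0.83 scaled CPM to 134 ± 8.1 with CCF642 and 116 ± 3.8 with CCF642-34. The growth arrest gene GADD45A, likewise a stress gene, rose from 31.0 ± 1.6 to 110 ± 4.7 and 98.7 ± 7.1. ITGB1, the integrin beta 1 gene, fell from 131 ± 3.8 to 99.2 ± 3.1 and 119 ± 4.9. Between the compounds, 1 gene of the list was higher and 4 were lower with CCF642-34, where 15.9% and 17.5% of all genes were.

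Of the targets of MondoA and MLX, 6 of 7 were listed, and 3 rose and 3 fell with CCF642 (31.8% and 31.3% of all genes), while 3 rose and 2 fell with CCF642-34 (29.7% and 27.9% of all genes). HBP1, a transcriptional repressor, rose from 83.3 ± 1.8 scaled CPM to 227 ± 13 and 207 ± 6.2, and TSC22D2 from 46.2 ± 2.6 to 95.4 ± 6.1 and 59.97 ± 0.69. KLF10, a zinc finger factor, fell from 18.9 ± 1.2 to 14.1 ± 2.3 and 11.4 ± 0.96. TXNIP and ARRDC4, arrestin family genes best known as targets of this branch, were added after their values were seen. TXNIP averaged 84.3 ± 1.5 scaled CPM with DMSO, 71.5 ± 3.1 with CCF642 (log2 fold change −0.23, adjusted p = 0.000611) and 80.9 ± 4.4 with CCF642-34 (−0.06, adjusted p = 0.41). ARRDC4 was near the lower limit of listed values in all groups, at 2.36 ± 0.18, 1.13 ± 0.31 and 1.06 ± 0.11.

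**Figure D4:**
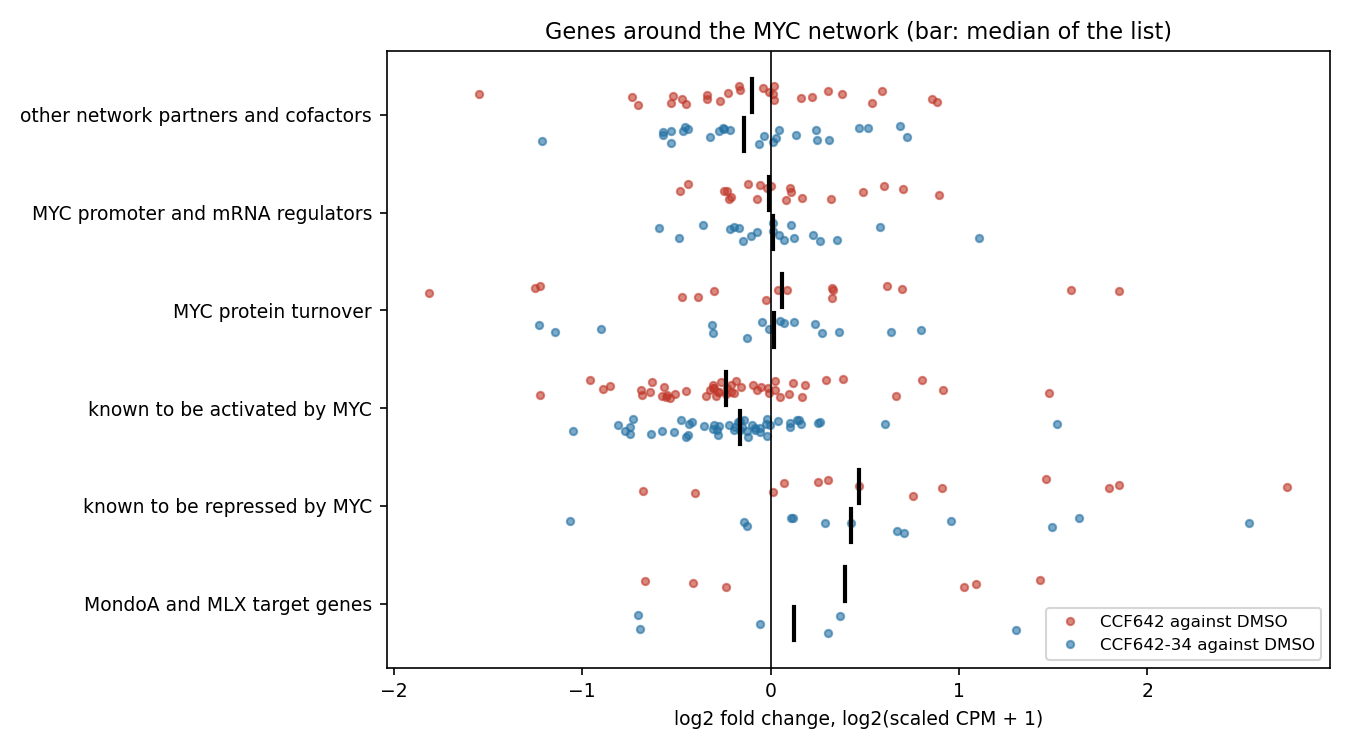
Log2 fold changes of the genes in the 6 lists around the network. Each point is 1 listed gene on the horizontal axis of log2(scaled CPM + 1) differences, red for CCF642 and blue for CCF642-34 against DMSO, n = 2 libraries per group, and black bars are medians; the genes known to be activated by MYC have medians of −0.23 and −0.16, and those known to be repressed by it 0.47 and 0.43.

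The genes whose pattern over the 6 libraries was most like that of MYC were found by the Euclidean distance of log2 values centred on the DMSO mean, among 8421 other genes with a mean of at least 10 CPM. PLK1 was nearest, at a distance of 0.37, followed by FAM78A (0.40), SDC1 (0.55), CCR1 (0.56) and CCNF (0.57). SDC1 encodes syndecan-1 (CD138), the surface marker of plasma cells. It fell from 817 ± 12 scaled CPM to 256 ± 11 with CCF642 and 375 ± 18 with CCF642-34. CCR1, a chemokine receptor gene, fell from 176 ± 1.6 to 55.3 ± 0.85 and 69.7 ± 1.4, and CCNF, the cyclin F gene, from 116 ± 2.9 to 33.0 ± 0.043 and 38.9 ± 1.2. For MXD1, the nearest were JOSD1 and NFIL3 (0.10 each) and HELZ2 (0.11). JOSD1, a deubiquitinase gene, rose from 135 ± 6.1 to 314 ± 7.8 and 239 ± 3.9, and NFIL3, a bZIP factor gene, from 145 ± 1.7 to 316 ± 1.7 and 262 ± 0.97. Only 2 genes lay within 0.5 of MYC, whereas 256 lay within 0.5 of MXD1. The distance was not scaled to the size of the change, and MYC had the 4th lowest log2 fold change of all genes with CCF642. These counts therefore do not show that the shape of the MYC pattern is rarer.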

How the data were processed

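RNA was made into poly(A) libraries from 6 samples, 2 for each of DMSO, CCF642 and CCF642-34. The authors deposited CPM values for 11048 gene symbols per library; the submitters' processing notes name STAR, edgeR 3.24.3, limma 3.38.3 and the genome build hg19, without stating the role of each. The unit was read from the values: 100% were whole multiples of 1 read within 0.01 reads, and no gene stayed under 1.50 CPM in all libraries. The totals of 20567313 to 28459677 reads limit only counting error. A matrix repeating the same values was not used.

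CPM were divided by TMM factors (edgeR 4.0.16), increased by 1, converted to log2 and fitted for the 3 groups together with limma 3.58.1 in R 4.3.3, with a variance trend and no block (3 residual and 42.9 prior degrees of freedom). All tests were two-sided. On simulated data for CCF642-34 against DMSO with 11048 genes, 96 of 100 genes changed 1.5-fold, 100 of 100 changed 3-fold and 16 of 10848 unchanged genes were called. Every gene was simulated with the same dispersion (spread between libraries), the median over the genes. Only the 1.5-fold and 3-fold genes were changed, in balanced directions, and the CCF642 libraries were simulated as DMSO. The real changes were far more widespread, so these counts do not measure the errors of the real calls.

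The members and lists were chosen with earlier results of these data known. Genes of the lists were named by rule: the 2 largest rises and falls with CCF642-34 and, where different, the largest with CCF642, among called genes with a mean of at least 5 CPM whose libraries did not overlap those of DMSO. Added to these were the 5 genes nearest in pattern to MYC and the 3 nearest to MXD1. Exon lengths and overlaps came from GENCODE 29 on GRCh38, and promoters from RefSeq. Alternatives were other scalings, pseudocounts of 0.1 and 4, a minimum mean of 5 CPM, fits of the 2 groups compared, a gene-wise linear model, a replicate block, count tests on recovered reads (edgeR, limma-voom, DESeq2 1.42.0) and leaving out each library.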

Additional observations from a re-analysis of the deposited data

How the results depend on the processing

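Of 510 alternative values of the members' log2 fold changes, 453 kept their direction and side of the threshold, 47 lost the call, 1 gained it and 9 changed sign, all 9 in MXD4, MLX and MAX differences close to 0; the cause was not tested. The number of members that differed between the compounds, 9, was 2 with a gene-wise linear model, which shares no variance between genes, and 4 to 7 without each library. The numbers of other list genes that were higher and lower in the direct comparison of the compounds, 22 and 30, were 2 and 9 with the gene-wise model, and the first was 14 to 22 without each library. With library size alone, the median of all genes was −0.13 with CCF642 and −0.08 with CCF642-34 against DMSO, MXD4 and MLX with CCF642-34 against DMSO became −0.026 and −0.077, and WDR5 and IKZF1 between the compounds became 0.0016 and 0.041. MAX between the compounds was −0.0028 with DESeq2 size factors and −0.0056 with DESeq2's Wald test. Against DMSO, the gene-wise model called 7 members with CCF642 and 5 with CCF642-34, in place of 10 and 7. MAX, MXD4 and MLX lost the call with CCF642, and MAX and MXD3 lost it with CCF642-34. Without each library, the log2 difference ranged from −0.050 to 0.18 for MXD4 and −0.035 to 0.058 for MLX (CCF642-34 against DMSO), and between the compounds from −0.073 to 0.083 for MAX, −0.0199 to 0.38 for E2F6, −0.0992 to 0.015 for WDR5, −0.035 to 0.029 for IKZF1, −0.19 to 0.11 for ARRDC4, −0.27 to 0.031 for MYCN and −0.0988 to 0.14 for MYCL. The MYC share of partner mRNA with DMSO, CCF642 and CCF642-34 was 53.8%, 19.1% and 31.3% without length, 48.3%, 14.2% and 24.4% with coding length, and 68.4%, 31.2% and 45.7% with the longest transcript.

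Same-numbered libraries shared little deviation from their group means over 8422 genes. The correlation was −0.05 for DMSO and CCF642, −0.11 for DMSO and CCF642-34, and 0.14 for CCF642 and CCF642-34. These values cannot tell whether same-numbered libraries were prepared together, since a pairing with little shared effect would give similar ones. With a replicate block, 10, 7 and 9 members were called in the 3 comparisons, as without it. A crossed block, chosen after seeing the data, also called 10, 7 and 9.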

Other observations

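MLX, MNT and MXD4, the 3 of 9 members searched (all but MYC) whose promoter window holds CACGTG, were also the 3 of the 10 members that did not pass the test with CCF642-34 against DMSO. The same 3 genes were called in both other comparisons, CCF642 against DMSO and CCF642-34 against CCF642. The coincidence thus holds for 1 of the 3 comparisons. It was noticed after the values were seen, and it was not tested.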
